A study of Mus musculus with 12 samples.

Results

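Group 1 innate lymphoid cells comprise circulating conventional natural killer (NK) cells and tissue-resident ILC1, which share many surface receptors but differ in residency, cytokine receptors and transcription factors. The 7 genes described here, Tnfsf10, Il7r, Il21r, Entpd1, Inpp4b, Ahr and Rora, are ILC1 or tissue-resident feature genes. They were taken by name and matched by mouse Ensembl gene ID, so no measured value entered the match. The choice itself was made with earlier results of these data known. These genes are 7 of the 37991 in the table of expression values. Id2 encodes an inhibitor that binds E proteins and keeps them off DNA, and Tcf7 encodes TCF-1, a transcription factor that acts downstream of Wnt signalling. Both are needed in early innate lymphoid development, and the level of Id2 sets how far E proteins can act in NK cells.

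Bulk RNA sequencing was done on NK1.1+CD49b+ cells sorted from C57Bl/6 bone marrow, in 4 groups of 3 libraries. The DKO libraries came from Ncr1Cre Id2F/F Tcf7F/F mice. The Id2KO group was Ncr1Cre Id2F/F, and Ncr1Cre was combined with Tcf7F/F alone in the Tcf1KO group. Floxed mice served as controls (Ctrl), which one label gives as Id2F/F or Id2F/F Tcf7F/F and another as Id2F/F. No ages were given. Cre was driven from Ncr1, so deletion starts only once a cell expresses that gene, and the controls carried no Cre, so each comparison with Ctrl also holds the presence of Cre. The libraries were called independent, without saying whether each came from a separate mouse, so the p-values measure only the spread between these libraries. In bulk RNA, fewer cells of a type and less RNA per cell cannot be told apart.

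The libraries held 13975523 to 20208160 reads on genes. Id2 had 36.8 to 48.8 FPKM (fragments per length of gene and size of library) in DKO, 17.1 to 19.2 in Id2KO, 102 to 126 in Tcf1KO and 124 to 170 in Ctrl. DKO thus kept more Id2 RNA than Id2KO, without overlap. In DKO against Id2KO, and in the interaction, the remaining Id2 and the Tcf7 label cannot be told apart. Tcf7 averaged 62.4 FPKM in DKO, 84.8 in Id2KO, 35 in Tcf1KO and 40.9 in Ctrl. Tcf1KO (29.6 to 38) overlapped Ctrl (37.7 to 46.5), and DKO (53.9 to 73.3) lay above Ctrl and below Id2KO (80.9 to 92.1). These values do not show a loss of Tcf7 against Ctrl. A whole-gene value may count exons outside a floxed part, and deletion may be incomplete. Reads per exon were not at hand, so neither was tested. Directions below rest on the labels of those libraries. The NK markers Ncr1, Klrb1c and Itga2 were present in every group, at averages of at least 32.5 FPKM, but each was highest in Ctrl. Ncr1 averaged 78.1 FPKM in DKO, 124 in Id2KO, 64.8 in Tcf1KO and 192 in Ctrl. Over 10 NK markers, the median log2 difference from Ctrl was -0.44 in DKO, -0.27 in Id2KO and -0.37 in Tcf1KO. Summed over 12 T cell markers, several of which NK cells also transcribe, the level was 1852 to 2264 FPKM in DKO, 1294 to 1752 in Id2KO, 1415 to 1902 in Tcf1KO and 976 to 1159 in Ctrl. Summed over 16 myeloid markers it was 325 to 800 FPKM in DKO, 62.9 to 1043 in Id2KO, 1179 to 4315 in Tcf1KO and 905 to 3641 in Ctrl. A list of 10 markers of ILC2 and ILC progenitors, among them Gata3 and Il1rl1, summed to only 23 to 41.7 FPKM over all libraries. The mice were of both sexes: 4 libraries, 1 in each group, had Xist under 1 FPKM with Y-linked genes above 0, 7 had the opposite, and replicate 2 of DKO had both, with Xist at 124 FPKM and 4 Y-linked genes summing to 19.

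**Figure D1:**
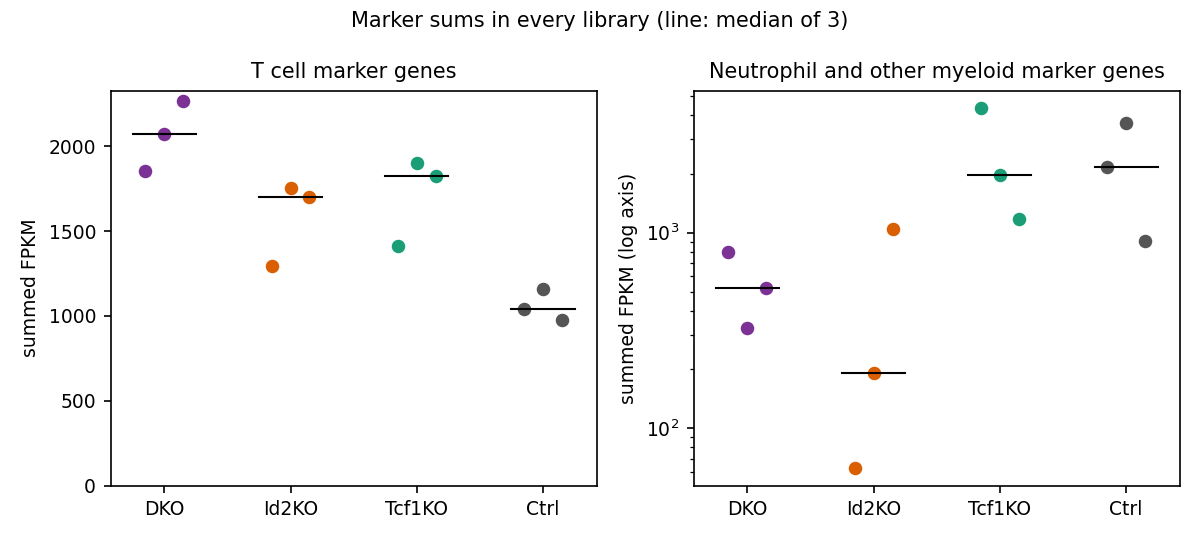
Summed FPKM of T cell markers (left, linear axis) and of myeloid markers (right, log axis) in each of the 12 libraries, by group, with a line at the median of 3. All DKO, Id2KO and Tcf1KO libraries lie above the 1159 FPKM of the highest Ctrl library in the T cell sum. The median log2 difference of the 11 tested T cell markers from Ctrl was 1.02 in DKO, 0.09 in Id2KO and 1.14 in Tcf1KO. The myeloid sums spread widely within groups.

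Entpd1 and Tnfsf10 shared a pattern, higher in DKO and Tcf1KO than in Id2KO and Ctrl libraries. Their promoter stretches are shown here as the letters before the starts of these genes, and no link between motifs and levels was tested. RefSeq windows of 300 bases (250 before to 50 after a gene's start, GRCm38.p6) were at hand for 6 of the 7 genes, Entpd1 having a pair of starts, which made 7 windows. CAGGTG, an E-box of the kind E proteins bind, was searched on both strands. It began at position -245 from the first RefSeq start of Entpd1 and at -188 from that of Tnfsf10, and lay in none of the other member windows. The RefSeq start of Tnfsf10 lies inside the gene span given below, not at its first base. Over 32851 windows of the same length, 20.2% held it. The stretches below are chr19:40612116-40612315 and chr3:27316827-27317026, both on the plus strand, with the E-box in capitals.
Entpd1: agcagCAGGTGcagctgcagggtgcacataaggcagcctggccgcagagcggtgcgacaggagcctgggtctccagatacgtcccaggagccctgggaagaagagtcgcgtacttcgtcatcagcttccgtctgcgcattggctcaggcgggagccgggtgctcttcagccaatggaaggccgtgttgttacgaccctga
Tnfsf10: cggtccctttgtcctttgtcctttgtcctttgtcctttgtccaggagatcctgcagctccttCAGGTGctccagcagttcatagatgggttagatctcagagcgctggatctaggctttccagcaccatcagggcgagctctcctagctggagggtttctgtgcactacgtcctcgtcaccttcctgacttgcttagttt
CTTTGA, a TCF-1 type motif, was in no member window and in 16% of all windows. GCGTG, the core of the site bound by the aryl hydrocarbon receptor, was in the windows of Entpd1, Inpp4b and Rora and in 32.4% of all windows. AGGTCA, an element that ROR factors bind, was in those of Il21r and Tnfsf10 and in 16.3% of all windows. A match is a description of these letters, not a binding site.

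Tnfsf10 (ENSMUSG00000039304, chromosome 3, 27317028 to 27342427, plus strand, GRCm38) encodes TRAIL, a TNF-family ligand that triggers death receptors and marks liver ILC1 in mice. It had 15.7, 19.3 and 26.1 FPKM in DKO, 6.79, 7.99 and 11.6 in Id2KO, 14.9, 23.8 and 22.8 in Tcf1KO, against 8.81, 10.2 and 10.2 in Ctrl. Every DKO and every Tcf1KO library lay above every Id2KO and Ctrl library. DKO exceeded Id2KO by 1.13 ± 0.24 (log2 of FPKM plus 1, ± SE; adjusted p = 0.135) and Ctrl by 0.97 ± 0.24 (adjusted p = 0.201). Tcf1KO exceeded Ctrl by 0.98 ± 0.24 (adjusted p = 0.426), and none of these passed limma's test with Benjamini-Hochberg adjustment at 0.05. DKO and Tcf1KO overlapped, with a difference of -0.01 ± 0.24, and so did Id2KO and Ctrl (-0.16 ± 0.24). The T cell sums given above were higher than Ctrl in DKO, Tcf1KO and also Id2KO. By median log2 difference from Ctrl, the T cell markers stood at 1.02 in DKO, 1.14 in Tcf1KO and 0.09 in Id2KO. With their score as a term in the fit, added after seeing the data, the Tnfsf10 difference was -0.16 for DKO against Ctrl, 0.39 for DKO against Id2KO and 0.02 for Tcf1KO against Ctrl, and since that score itself differs between the groups the contributions cannot be told apart.

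The interleukin-7 receptor gene Il7r (ENSMUSG00000003882, chromosome 15, 9505788 to 9530176, minus strand) encodes the receptor chain that lymphocytes use for survival signals and that most ILC other than mature conventional NK cells carry. It had 20.5, 29.6 and 27.1 FPKM in DKO, 15.5, 11.2 and 23.1 in Id2KO, 13.8, 16.6 and 9.18 in Tcf1KO, against 12.4, 33.6 and 31.6 in Ctrl. All comparisons with Ctrl overlapped, and replicate 1 of Ctrl lay far below the other two of its group. DKO lay above Tcf1KO without overlap, by 0.93 ± 0.38 (adjusted p = 0.678). Replicate 1 was also the only Ctrl library with Y-linked genes, and the Id2KO library with them was the lowest of its group at 11.2 FPKM, as was the DKO library that had them without Xist, at 20.5, whereas in Tcf1KO the one with them, at 13.8, was in the middle. With the Xist level as a term the DKO difference from Ctrl was 0.09, against 0.10 ± 0.38 without it. Leaving out replicate 1 of Ctrl turned it to -0.35 and gave a Tcf1KO difference of -1.28 (adjusted p = 0.534), where all libraries gave -0.84 ± 0.38 (adjusted p = 0.999). With the T cell score as a term, DKO differed from Ctrl by -0.88 and from Id2KO by 0.00 (0.64 ± 0.38 without the score), Id2KO differed from Ctrl by -0.89 (-0.55 ± 0.38 without it), and Tcf1KO differed from Ctrl by -1.68.

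Il21r (ENSMUSG00000030745, chromosome 7, 125603429 to 125633570, plus strand) encodes the receptor of interleukin-21, a cytokine that promotes NK cell maturation and effector function. It had 15.6, 17.3 and 20.9 FPKM in DKO, 14.2, 21.1 and 15.6 in Id2KO, 9.65, 13.1 and 17.7 in Tcf1KO, against 5.99, 4.08 and 8.93 in Ctrl. All 9 libraries with Cre lay above all 3 Ctrl libraries, so the presence of Cre and the loss of the genes cannot be told apart for this pattern. The difference from Ctrl was 1.41 ± 0.28 for DKO (adjusted p = 0.0976), 1.33 ± 0.28 for Id2KO (adjusted p = 0.123) and 1.0 ± 0.28 for Tcf1KO (adjusted p = 0.568), sharing the same 3 Ctrl libraries. DKO, Id2KO and Tcf1KO overlapped with one another, at 0.09 ± 0.28 for DKO against Id2KO and 0.42 ± 0.28 for DKO against Tcf1KO. With the T cell score as a term the differences from Ctrl were 1.41, 1.32 and 0.99 for DKO, Id2KO and Tcf1KO. With the other-lineage score, which takes in myeloid, erythroid and basophil markers, they were 1.18, 0.82 (adjusted p = 0.489) and 1.05.

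Entpd1 (ENSMUSG00000048120, chromosome 19, 40612366 to 40741602, plus strand) encodes CD39, a cell-surface enzyme that breaks down extracellular ATP and ADP and starts the path to adenosine. It had 4.69, 3.35 and 4.96 FPKM in DKO, 0.839, 0.448 and 1.41 in Id2KO, 4.8, 4.15 and 5.71 in Tcf1KO, against 1.56, 1.81 and 1.43 in Ctrl. The groups split in 3 tiers, with DKO and Tcf1KO high and overlapping, Ctrl below both, and Id2KO lowest, its top library just under the lowest Ctrl library. The ratio of group means was 4.83 for DKO over Id2KO and 3.06 for Tcf1KO over Ctrl. Entpd1 rose in DKO against Id2KO by 1.51 ± 0.22 (95% interval 1.02 to 2.0, adjusted p = 0.0311), the only member to pass in any of the 6 contrasts. The differences were 1.17 ± 0.22 for Tcf1KO against Ctrl (adjusted p = 0.195), 1.03 ± 0.22 for DKO against Ctrl (adjusted p = 0.124) and -0.48 ± 0.22 for Id2KO against Ctrl (adjusted p = 0.517). By the count-based test the last was -0.92, and with the T cell score as a term DKO differed from Ctrl by 0.65. Id2KO holds few Entpd1 reads, 74 in its lowest library.

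That call was close to its threshold. Of 28 other settings that gave Entpd1 a value, all were positive, from 1.26 to 2.35, and 10 kept the call, with adjusted p between 0.0209 and 0.659. The count-based test on reads recovered from the FPKM (voom) gave 2.35 (adjusted p = 0.0277). A fit of only the compared groups gave an adjusted p of 0.289, so the call relied on a spread shared with Tcf1KO and Ctrl. No filter gave 0.063, median scaling 0.055 and quantile normalization 0.0584. The Xist level as a term gave an adjusted p of 0.0504, the other-lineage score 0.0777, and the T cell score 0.659 with a difference of 1.26. With the T cell score, 0 of all 12384 genes were called in this contrast, against 15 in the reported fit. Leaving out any 1 of the 12 libraries kept the call only without replicate 3 of Id2KO or replicate 3 of Tcf1KO. It was lost when replicate 1, 2 or 3 of DKO was left out, with adjusted p of 0.137, 0.0731 and 0.172. It was also lost without replicate 1 or 2 of Id2KO (0.14 and 0.173), of Tcf1KO (0.0654 and 0.0647), or replicate 1, 2 or 3 of Ctrl (0.0585, 0.056 and 0.0687).

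**Figure D2:**
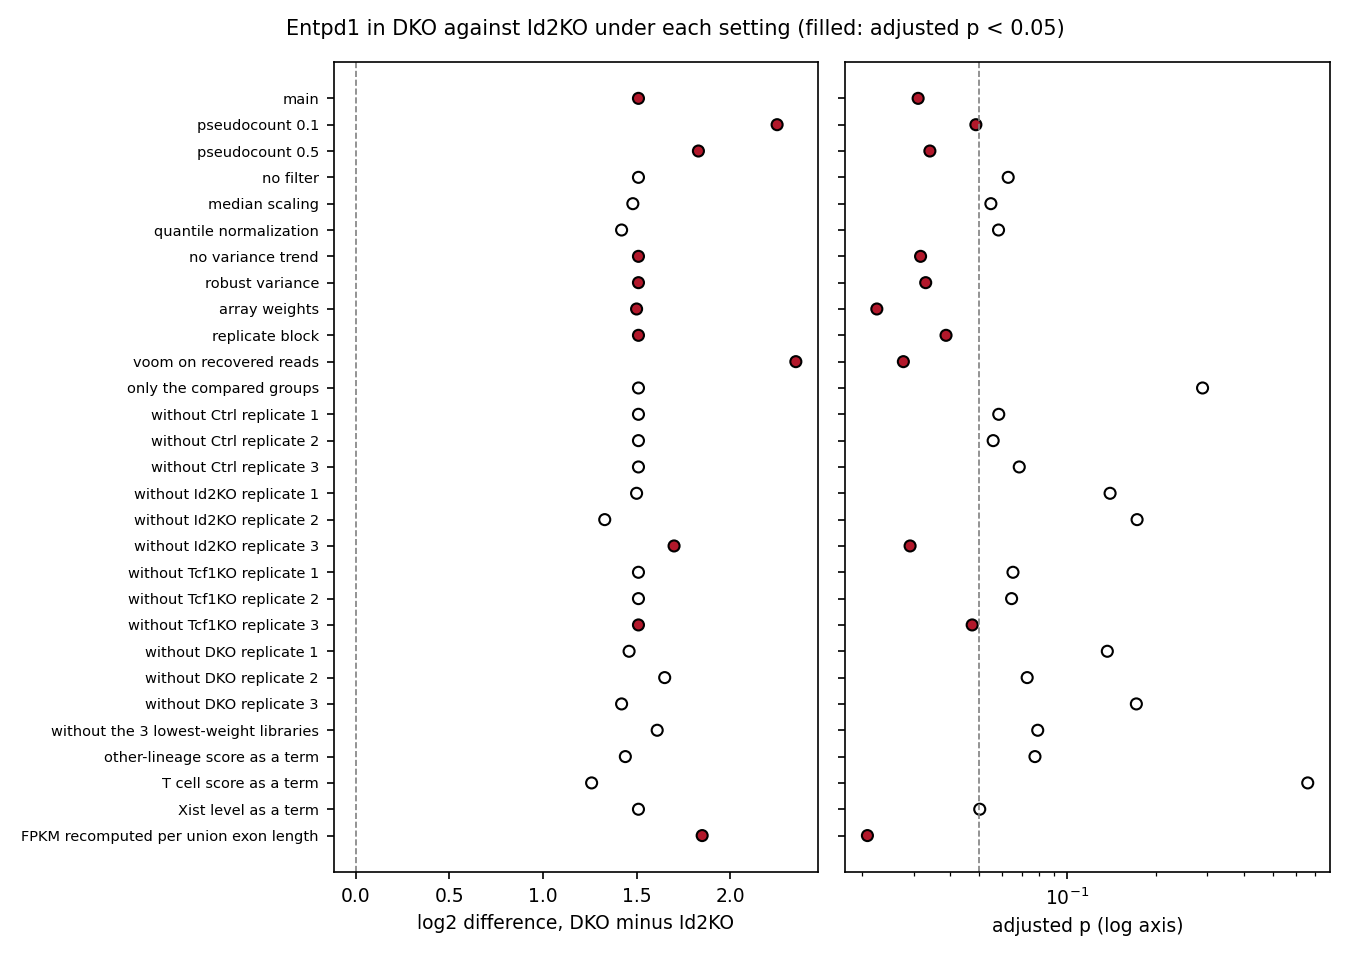
The Entpd1 log2 difference of DKO minus Id2KO (left) and its adjusted p on a log axis with the threshold of 0.05 dashed (right), for the reported fit and 28 other settings, filled where the adjusted p is under 0.05. The difference runs from 1.26 to 2.35 across the other settings, whereas 10 of them stay under the threshold.

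Inpp4b (ENSMUSG00000037940, chromosome 8, 81342556 to 82127914, plus strand) encodes a phosphatase of phosphatidylinositol lipids that limits signalling through phosphoinositide 3-kinase. It had 3.72, 4 and 5.04 FPKM in DKO, 1.24, 1.24 and 2.49 in Id2KO, 2.66, 2.33 and 1.87 in Tcf1KO, against 1.39, 1.21 and 2.1 in Ctrl. All DKO libraries lay above all others, whereas the other groups overlapped with one another. DKO differed by 1.04 ± 0.23 from Ctrl (adjusted p = 0.135), 1.01 ± 0.23 from Id2KO (adjusted p = 0.152) and 0.68 ± 0.23 from Tcf1KO (adjusted p = 0.546), with none past the test. The interaction of the pair of targeted genes was 0.65 ± 0.33 (adjusted p = 0.836).

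Among the transcription factors, Ahr (ENSMUSG00000019256, chromosome 12, 35497974 to 35535038, minus strand) encodes the aryl hydrocarbon receptor, a ligand-activated factor that supports tissue-resident lymphocytes in mice. It had 1.5, 1.87 and 2.07 FPKM in DKO, 4.59, 4.79 and 5.03 in Id2KO, 1.03, 2.07 and 1.14 in Tcf1KO, against 1.8, 0.939 and 2.28 in Ctrl. All Id2KO libraries lay above all other libraries, and the other groups overlapped. Id2KO exceeded Ctrl by 1.15 ± 0.23 (adjusted p = 0.117), and DKO differed from Id2KO by -1.05 ± 0.23 (adjusted p = 0.145), neither past the test. Rora (ENSMUSG00000032238, chromosome 9, 68653786 to 69388246, plus strand) encodes ROR alpha, a nuclear receptor known for ILC2 development and also found in ILC1. It had 2.13, 2.73 and 1.7 FPKM in DKO, 0.642, 0.391 and 0.883 in Id2KO, 3.78, 2.87 and 4 in Tcf1KO, against 1.72, 3.22 and 1.78 in Ctrl. Rora had the reverse order to Ahr in Id2KO, where all 3 libraries lay below all others, and its DKO libraries lay below its Tcf1KO libraries. Id2KO differed from Ctrl by -0.96 ± 0.23 (adjusted p = 0.193) and DKO from Id2KO by 0.96 ± 0.23 (adjusted p = 0.172). The pseudocount compresses these low values: the count-based test gave -1.77 (adjusted p = 0.113) and 1.80 (adjusted p = 0.121), and the mean in DKO was 3.43 times that in Id2KO. DKO and Ctrl overlapped, with a difference of -0.01 ± 0.23 (95% interval -0.52 to 0.51), and DKO differed from Tcf1KO by -0.52 ± 0.23 (adjusted p = 0.738). Exons of Rora overlap the antisense gene Gm15511, at most 1.66 FPKM, and those of Ahr overlap the noncoding Gm48236, whose reads cannot be told apart without strand information.

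**Figure D3:**
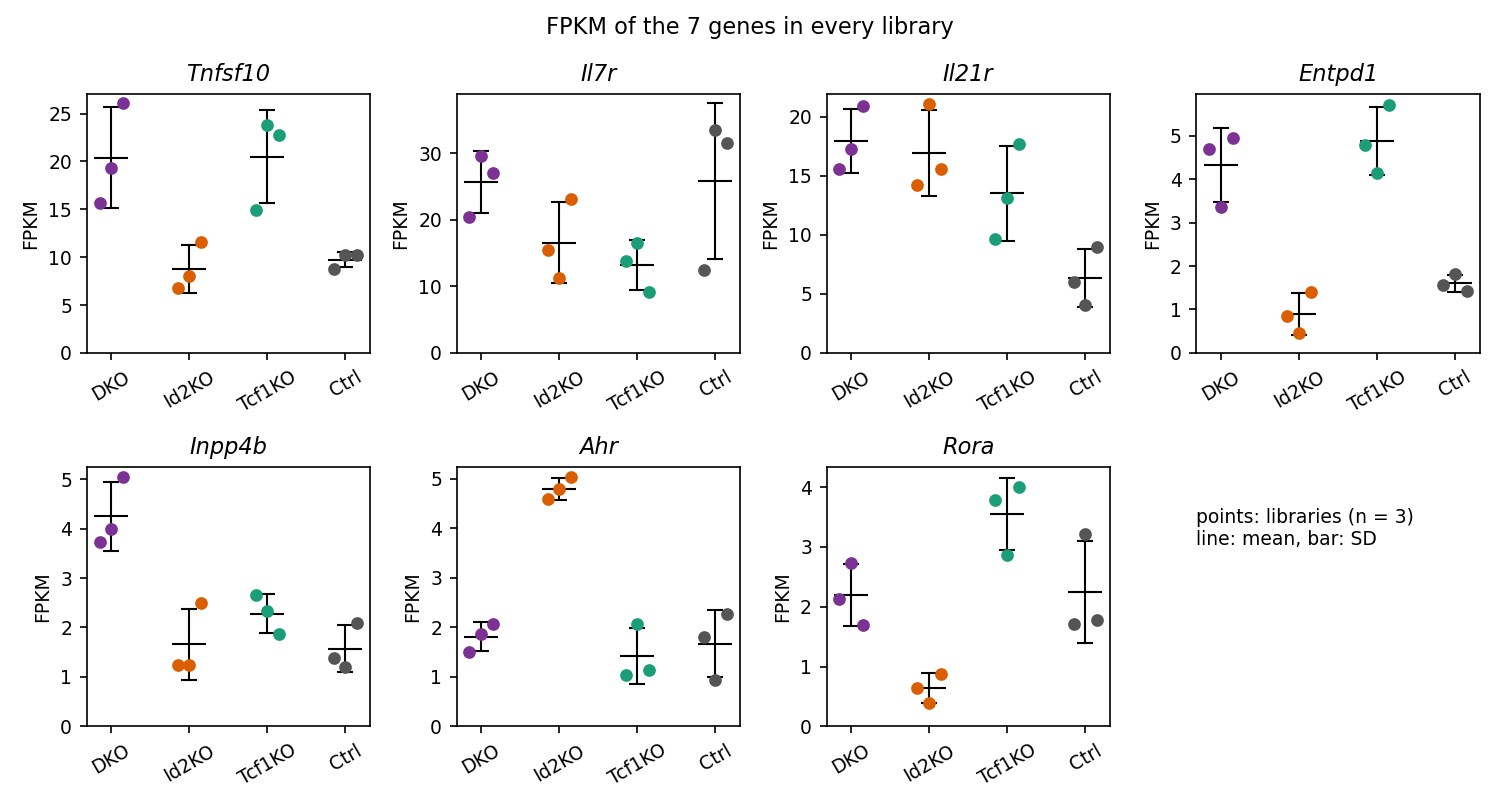
FPKM of each of the 7 genes in the 12 libraries, by group, with the mean and SD of 3 libraries on linear axes starting at 0. Entpd1 is high in DKO and Tcf1KO and lower in Ctrl and Id2KO, which are parted only by 1.43 against 1.41 FPKM. Ahr stands apart in Id2KO and Rora is lowest there, and Il7r overlaps between all groups but DKO and Tcf1KO.

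Comparing the genes with each other depends on the gene length used. By the deposited FPKM, Ctrl means ran from 25.9 for Il7r through 9.73 for Tnfsf10, 6.33 for Il21r, 2.24 for Rora, 1.67 for Ahr and 1.6 for Entpd1 to 1.57 for Inpp4b. Recomputed per union exon length from the recovered reads, they were 17.8, 11.1, 9.05, 3.25, 2.87, 3.34 and 4.4 FPKM for the same genes, so that Inpp4b, last in the deposited values, stood ahead of Rora, Ahr and Entpd1. Il7r, Tnfsf10 and Il21r headed both orders.

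Over the 5 pairwise comparisons the members were counted against all 12384 genes tested. The members and the lists below were chosen with earlier results of these data known, so the counts beside all genes are descriptive. In Id2KO against Ctrl limma called 0 members, with 0.178% of all genes called, and 3 members had an unadjusted p under 0.05, against 9.71% of genes. Il21r and Ahr were higher and Entpd1 and Rora lower without overlap, 4 of 7 members against 13.9% of all genes. In Tcf1KO against Ctrl, limma called 0 members and 0% of all genes, with 4 members at an unadjusted p under 0.05 against 4.8% of genes. Tnfsf10, Il21r and Entpd1 were higher without overlap, against 4.96% of genes higher and 10.7% in either direction. In DKO against Ctrl 0 members and 0.145% of genes were called, with 4 members at an unadjusted p under 0.05 against 9.44% of genes. Tnfsf10, Inpp4b, Il21r and Entpd1 were higher and none lower without overlap, against 6.28% of genes higher and 13.5% in either direction. The count-based test called 0 members in each of these 3 comparisons as well.

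In DKO against Id2KO, 1 of 7 members was called, Entpd1, and 0.121% of all genes, while 5 members and 10.9% of genes had an unadjusted p under 0.05. Without overlap Tnfsf10, Inpp4b, Entpd1 and Rora were higher and Ahr was lower, 5 members against 14.7% of genes. In DKO against Tcf1KO 0 members and 0.0565% of genes were called, with 3 members and 6.73% of genes at an unadjusted p under 0.05, and 0 members by the count-based test. Inpp4b and Il7r were higher and Rora was lower without overlap, against 12.6% of genes. Against Ctrl, the members' median log2 difference was 0.97 for DKO, -0.16 for Id2KO and 0.51 for Tcf1KO. For DKO it was 0.96 against Id2KO and 0.24 against Tcf1KO, beside medians of -0.01 to 0.00 over all genes tested. These comparisons share groups, so their counts are not independent. The interaction called 0 members and 0% of genes, with 3 members and 5.94% of genes at an unadjusted p under 0.05, and 0 members by the count-based test.

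**Figure D4:**
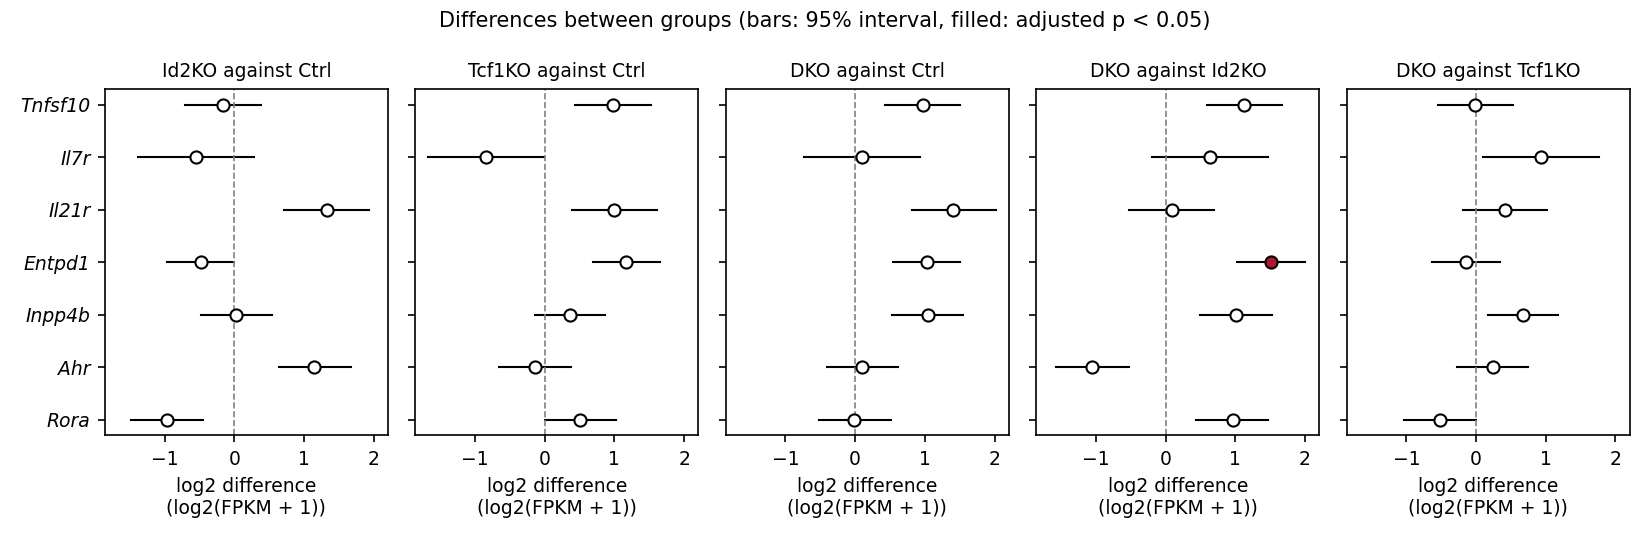
Log2 difference (FPKM plus 1) of each gene in 5 pairwise comparisons, with 95% intervals, filled where the adjusted p is under 0.05. Only Entpd1 in DKO against Id2KO, at 1.51, is filled, while Ahr and Rora lie on opposite sides of 0 in Id2KO against Ctrl.

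A list of 23 other ILC1 and residency genes, 22 of them tested, gave 0 calls in 5 contrasts and 1 in DKO against Id2KO. Against Ctrl its median difference was 0.62 in DKO, with 18 of 22 above 0, -0.15 in Id2KO, with 9 of 22 above 0, and 0.19 in Tcf1KO, with 13 of 22 above 0. It was 0.51 in DKO against Id2KO and 0.17 in DKO against Tcf1KO, and -0.01 to 0.00 over all genes tested. In DKO against Ctrl and in DKO against Id2KO 9 of the 22 had an unadjusted p under 0.05, where 9.44% and 10.9% of all genes did. The count-based test called 2 genes in each of that pair, Itga1 and Cd3e, which is also a T cell marker, and Cd3e alone in Tcf1KO against Ctrl. The gene called by limma was Itga1, which encodes the integrin chain CD49a and marks tissue-resident lymphocytes. It had 7.3, 5.41 and 8.65 FPKM in DKO, 1.04, 0.983 and 1.02 in Id2KO, 6.67, 5.3 and 6.88 in Tcf1KO, against 2.77, 2.67 and 1.48 in Ctrl. Itga1 rose in DKO against Id2KO by 1.99 ± 0.21 (adjusted p = 0.0069), with the same order of tiers as Entpd1. The difference was 1.86 (adjusted p = 0.0675) without the 3 libraries of lowest array weight and 1.94 (adjusted p = 0.372) with the T cell score as a term. With that score 0 of all genes tested were called in this contrast, against 15 in the reported fit. The call held by the count-based test (adjusted p = 0.00701) and with the other-lineage score (0.032) or the Xist level (0.0141) as a term. It was also the gene whose library-to-library pattern lay nearest to that of Entpd1.

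By limma, 0 genes of the members' own pathways were called in any contrast. The count-based test called 1, Prdm1, lower in Id2KO against Ctrl. By limma at an unadjusted p under 0.05, the IL-7 and IL-21 receptor signalling list held at most 5 of 19 genes, in DKO against Id2KO. There 10.9% of all genes passed. The extracellular nucleotide list held at most 4 of 13, in DKO against Tcf1KO (6.73% of all genes). The TNF family list held at most 4 of 16, in Id2KO against Ctrl (9.71% of all genes). Each other list of the members' own pathways held at most 2 in a contrast. The share of all genes ran from 4.8% to 10.9% over the contrasts. In the IL-7 and IL-21 receptor signalling list, 0 of 19 tested genes were called in either direction. Prdm1, a transcriptional repressor, was nearest, with 2.08 ± 0.954 FPKM in Id2KO and 8.4 ± 2.76 in Ctrl (SD, n = 3 each; difference -1.61 ± 0.27, adjusted p = 0.0506). Cish, an inhibitor of cytokine signalling, had 2.67 ± 1.2 FPKM in DKO and 0.583 ± 0.255 in Id2KO (adjusted p = 0.154). In the aryl hydrocarbon receptor list 0 of 8 were called, with Cyp1a1, a target of the receptor, below 0.1 FPKM in every library. The chaperone Hsp90ab1 had 247 ± 20.4 in Id2KO and 174 ± 38.3 in Ctrl (adjusted p = 0.346).

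In the ROR and circadian clock list 0 of 10 were called. Nr1d1, a repressor that competes with ROR factors for their sites, had 1.71 ± 0.416 FPKM in DKO and 0.38 ± 0.251 in Ctrl (adjusted p = 0.303), and the interaction of its relative Nr1d2 was 1.29 ± 0.47 (adjusted p = 0.831). In the extracellular nucleotide list 0 of 13 were called. Adora2a, an adenosine receptor, had 10.1 ± 1.53 FPKM in DKO and 18.1 ± 3.68 in Id2KO (adjusted p = 0.194), and Entpd5, a nucleotidase of another compartment, had 3.25 ± 0.609 in DKO and 1.84 ± 0.0512 in Ctrl (adjusted p = 0.316). In the phosphoinositide 3-kinase list 0 of 16 were called, with the regulatory subunits Pik3r5 at 26.4 ± 3.75 FPKM in Tcf1KO and 40 ± 3.73 in Ctrl (adjusted p = 0.598) and Pik3r1 at 23.1 ± 3.96 in Id2KO and 31.4 ± 2.85 in Ctrl (adjusted p = 0.349). In the TNF family list 0 of 16 were called. The ligand Lta had 6.25 ± 1.5 FPKM in DKO and 1.49 ± 0.866 in Tcf1KO (adjusted p = 0.392), and Fasl, another death ligand, had 36.4 ± 6.15 in DKO and 19.7 ± 3.58 in Id2KO (adjusted p = 0.227).

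Likeness was measured as the root mean square difference between centred log2 values over the 12 libraries, a description of these libraries with no test. Nearest to Entpd1 were Itga1 (0.25), Ikzf2 (0.31) and Cd226 (0.31), against the 0.72 of Entpd1 about its own mean. Nearest to Tnfsf10 were Ikzf2 (0.16), Trac (0.25) and Plcg1 (0.25), of which Trac is a T cell receptor gene and Ikzf2 was near to both. Nearest to Il21r were Nme7 (0.21), Epcam (0.27) and Acot2 (0.34), and nearest to Inpp4b were Nr1d1 (0.19), Aptx (0.22) and Izumo4 (0.22). For Ahr they were Kbtbd11 (0.23), Pdlim1 (0.25) and Ftsj3 (0.28), for Rora Zfp677 (0.26), Arrb1 (0.29) and Iigp1 (0.29), and for Il7r Retreg2 (0.31), Rundc1 (0.34) and Ttll1 (0.36).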

How the data were processed

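The authors deposited FPKM for 37991 genes in 12 libraries. Per the labels' protocols, RNA was isolated with an RNeasy micro kit, made into Nugen Ovation Ultralow libraries and sequenced on a NextSeq500. Per the submitters' processing notes, Trimmomatic 0.33, TopHat2 2.1.0, HTSeq 0.6.1, edgeR and mm10 were used. The strand setting and gene lengths are not given in the sources used here.

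For all 23707 genes above 0, the FPKM were whole multiples of the value of 1 read (tolerance 0.001 to 0.05 reads), which gave reads per gene. The implied gene lengths had a median ratio of 1.2565 to the union exon length. Mitochondrial rRNA took 23.6% to 32.4% of reads. Symbols and positions came from GENCODE M21 for 32919 IDs.

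The 12384 genes that reached 1 FPKM in 3 or more libraries were fitted as log2(FPKM + 1), over all 12 libraries, with limma 3.58.1 in R 4.3.3 (variance trend, two-sided moderated test, Benjamini-Hochberg adjustment over all tested genes, threshold 0.05). This log2 scale understates fold changes of low genes. All 7 members passed the filter, Rora with every Id2KO library under 1 FPKM. An exact permutation test of 3 against 3 libraries cannot go below 0.1. Alternatives were pseudocounts 0.1 and 0.5, other filters, scalings and variance settings, the replicate block, voom, a threshold of 0.01, fits of the compared groups and leaving out each library. Others were added after seeing the data: leaving out the 3 libraries of lowest array weight, scores of other lineages, T cells or the Xist level as a term, and FPKM per union exon length.

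The members, the 8 pathway lists and the 9 marker lists were chosen with earlier results of these data known. All members were named, with the called genes of each pathway list, or the 2 of smallest p where none was called, and the 3 genes nearest in pattern to each member, passing over receptor segments and unnamed genes. One gene that this rule names is not reported here. Python 3.11.15 with pandas 2.3.3 and numpy 2.4.6 made the tables, and matplotlib 3.10.9 the figures.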

Additional observations from a re-analysis of the deposited data

Results flagged for a closer look

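The interaction of Il7r (the change with Id2 targeting among Tcf7-targeted libraries minus that among the others) was 1.48 ± 0.53 on the log2 scale. It was picked because every DKO library lay above the Tcf1KO mean while every Id2KO library lay below the Ctrl mean. The test of that difference by limma gave an adjusted p of 0.831, so it failed the correction. Without replicate 1 of Ctrl, the lowest of its group, it was 1.92.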

How the results depend on the processing

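Over the member differences, 1139 recomputed values kept their direction and side of the threshold, 30 changed sign and 18, all of Entpd1 in DKO against Id2KO, kept their sign but lost the call. The number of members called in DKO against Id2KO was 1, and 0 with no filter, a filter at FPKM 5 (which leaves Entpd1 untested), median scaling, quantile normalization, a threshold of 0.01, a fit of the compared groups, the 3 libraries of lowest weight left out, or the other-lineage score, T cell score or Xist level as a term. It was 0 to 1 when a library was left out. In the other contrasts it was 0 throughout.

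The changes of sign were as follows. Inpp4b in Id2KO against Ctrl (0.03) was -0.09 with array weights, -0.28 without the 3 low-weight libraries, -0.06 with the T cell score and -0.18 to 0.18 with a library left out. Rora in DKO against Ctrl (-0.01) was 0.00 at pseudocount 0.1, 0.13 with array weights, 0.03 by voom, 0.31 without the 3 libraries, 0.08 with the other-lineage score and -0.13 to 0.20 with a library left out. In the same contrast Ahr (0.10) was -0.18 without the 3 libraries and -0.11 to 0.27 with a library left out, Il7r was -0.88 with the T cell score and -0.35 to 0.34 with a library left out, and Tnfsf10 (0.97) was -0.16 with the T cell score. With a library left out, Ahr in Tcf1KO against Ctrl ran from -0.35 to 0.03, Il21r in DKO against Id2KO from -0.02 to 0.25 (-0.07 without the 3 libraries), Tnfsf10 in DKO against Tcf1KO from -0.21 to 0.15 and its interaction from -0.05 to 0.35. The cause was not tested.

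Over the 18 pairs of same-numbered libraries, correlations of deviations ran from -0.14 to 0.272 (median 0.0302), and from -0.227 to 0.174 over the other 36 pairs. In DKO, Tcf1KO and Ctrl the libraries numbered 3 correlated at 0.196 to 0.272. Pairs numbered 1, 2 and 3 gave 0.2, 0.0838 and 0.272 between Tcf1KO and DKO, and 0.068, 0.142 and 0.236 between Ctrl and Tcf1KO. Between Ctrl and DKO they gave -0.0046, 0.11 and 0.196, and pairs with Id2KO ran from -0.14 to 0.0312. Between no 2 groups did all 3 pairs exceed 0.1, and the reported fit did not take the numbers as pairing. What same-numbered libraries share was not tested. The replicate block left Entpd1 called (adjusted p = 0.0387) and changed no other member call, and it called 15 genes in DKO against Tcf1KO, against 7 without it. Depth limits Entpd1 most, with 74 to 285 reads in Id2KO.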

Other observations

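Of 18 genes of conventional NK cells tested by limma, 3 fell in Id2KO against Ctrl and 2 in DKO against Ctrl. In DKO, 1 fell against Tcf1KO and 1 rose against Id2KO. Of all genes, 0.178%, 0.145%, 0.0565% and 0.121% were called in these contrasts, in the order given. At an unadjusted p under 0.05 by limma, 13 of the 18 were lower in Id2KO and 14 in DKO against Ctrl. Of all genes, 9.71% and 9.44% passed there in either direction. In Tcf1KO against Ctrl 0 were called, with 3 at an unadjusted p under 0.05, against 4.8% of all genes. The count-based test called 1 there, Ncr1. The list had a median difference of -0.87 in DKO and -1.07 in Id2KO against Ctrl, beside -0.01 over all genes tested. Without the 3 libraries of lowest array weight, 1 gene, Klrg1, was called in Id2KO against Ctrl, 1 in DKO against Tcf1KO, and 0 in DKO against Ctrl or Id2KO. With the T cell score as a term the counts were 3 in Id2KO and 0 in DKO against Ctrl. Over all genes tested, that term left 10 called in Id2KO and 0 in DKO against Ctrl, and leaving out the 3 libraries left 0 called in DKO against Ctrl. Klrg1, a receptor of mature NK cells, had 4.73 ± 0.311 FPKM in DKO, 1.86 ± 1.13 in Id2KO, 35.7 ± 6.78 in Tcf1KO and 24.3 ± 5.78 in Ctrl (SD, n = 3 each). It fell in Id2KO against Ctrl (-3.20, adjusted p = 0.00109), in DKO against Ctrl (-2.11, adjusted p = 0.0298) and in DKO against Tcf1KO (-2.66, adjusted p = 0.0109), all by limma. S1pr5, which guides exit from bone marrow, fell in Id2KO against Ctrl (-3.28, adjusted p = 0.00298) and in DKO against Ctrl (-2.33, adjusted p = 0.0424). Itgam, a maturation marker, fell in Id2KO against Ctrl (-2.16, adjusted p = 0.000974) and rose in DKO against Id2KO (1.28, adjusted p = 0.0311). Myeloid cells also express Itgam, and the myeloid sums given above differed between these groups. The part of such cells in the Itgam result cannot be told apart here.

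Of the markers of 9 cell types, Cd3d, named after its values were seen, was the only gene called by limma, higher in Id2KO against Ctrl, and the call was lost with the T cell score or the other-lineage score as a term and without the 3 libraries of lowest array weight. The sums in FPKM over the DKO, Id2KO, Tcf1KO and Ctrl libraries were 2361 to 3042, 2725 to 3639, 2369 to 2660 and 3414 to 3744 for NK cells, and 256 to 282, 352 to 414, 155 to 210 and 166 to 252 for B and plasma cells. For erythroid cells they were 454 to 2754, 169 to 1946, 1357 to 3592 and 778 to 4864, and for basophils and mast cells 58.7 to 632, 18.9 to 99.2, 54.3 to 774 and 171 to 638. For plasmacytoid dendritic cells they were 351 to 419, 155 to 275, 245 to 321 and 135 to 249, and for megakaryocytes 16.5 to 43.9, 0.757 to 29.6, 11.1 to 112 and 15.6 to 290.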
